A study of Mus musculus with 6 samples.

Results

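A set of 10 Notch pathway genes was followed in mouse kidney and ureter. It holds the receptors Notch1, Notch2, Notch3 and Notch4, the ligands Jag1, Jag2, Dll1 and Dll4, and the target genes Hes1 and Hey1. The members were chosen by gene symbol and make up 10 of the 24532 genes of the expression table. RNA-seq had been performed on whole tissue at postnatal (PN) 1 in WT mice and in Ahnak knockout (KO) mice, in which exon 5 of Ahnak is disrupted. The groups were WT kidney (2 libraries), Ahnak KO kidney (2 libraries), WT ureter (1 library) and Ahnak KO ureter (1 library), and the labels name no treatment beside the genotype. RNA came from 2 to 4 kidneys or ureters of PN1 mice, and the exact number in each library was not given in the sources used here. Ahnak encodes a large scaffold protein, and the study compared the genotypes to find which genes differ in expression in the KO urinary tract.

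Notch signaling passes between cells in contact. A Jagged or Delta-like ligand on one cell binds a Notch receptor on its neighbor, the receptor is cut by ADAM proteases and gamma-secretase, and the freed intracellular domain joins the DNA-binding protein Rbpj to switch on targets such as the Hes and Hey repressors. In the developing kidney the pathway is known for patterning the nephron and in vessels for specifying arteries and mural cells.

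Total counts were 55744703 to 66095616 in kidney libraries, 54985927 in WT ureter and 36410246 in Ahnak KO ureter, so a floor of 3 counts stood for 0.0454 to 0.0824 CPM (counts scaled to library size). Every member was well above it, with the lowest count, 222, for Dll1 in Ahnak KO ureter. Ahnak itself had 8414 and 7744 counts in the KO kidneys, 13058 and 11545 in the WT kidneys, 18895 in KO ureter and 37439 in WT ureter. Its kidney difference (log2 -0.47, SE 0.096) had an unadjusted p of 0.00265 and an adjusted p of 1.0 in edgeR's quasi-likelihood test with Benjamini-Hochberg adjustment. The ureter counts came from libraries of unequal depth. Scaled by factors of the ureter libraries alone, Ahnak was at 556 CPM in KO ureter and 636 in WT ureter (log2 ratio -0.19), while deposited TPM gave a log2 ratio of 0.18. Gene counts alone could not check the disruption, and the groups are named here as labelled. The Ahnak KO ureter library stood apart, with 8.06% of counts on the ribosomal RNA gene Rn45s against 0.496 to 0.632% in the other 5 libraries. Ahnak KO kidney replicate 1 was the only library with high Xist (176348 counts, against 17 to 36). The KO kidneys thus differed from each other in Xist, while both WT kidneys were low. The sample titles of both ureter libraries say kidney, but their tissue label says ureter, and the summed CPM of 9 urothelium markers was 7589 in WT ureter and 8847 in Ahnak KO ureter against 67.2 to 76.8 in kidney.

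Taken per transcript length, as deposited TPM, Hes1 and Jag1 were the most abundant of the members in kidney, and Hes1 followed by Jag2 and Jag1 in ureter. In kidney the mean TPM ran from 60.4 for Hes1 through 56.2 for Jag1, 40.2 for Hey1, 26.6 for Notch2, 25.0 for Notch1, 18.2 for Notch3, 18.1 for Dll1, 13.4 for Notch4 and 10.8 for Dll4 to 7.88 for Jag2 (n = 4). The ranges of the 4 libraries overlapped between Hes1 and Jag1 and between each pair of neighbors from Notch2 down to Notch4, and the other neighbors were separate. In ureter the mean TPM ran from 99.9 for Hes1 through 36.1 for Jag2, 35.1 for Jag1, 27.2 for Notch3, 25.9 for Notch1, 20.2 for Notch2, 12.6 for Hey1, 12.2 for Dll4 and 5.32 for Notch4 to 2.96 for Dll1 (n = 2, of different genotypes). The ureter values overlapped between neighbors from Jag2 down to Notch1 and between Hey1 and Dll4. Jag2 thus ranked 10 of the 10 members in kidney and 2 in ureter by mean TPM, while Dll1 ranked 7 in kidney and 10 in ureter.

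The first question was how the members differ between kidney and ureter. Of the 10 members, 7 passed an adjusted p of 0.05 in edgeR's quasi-likelihood test on all 6 libraries with genotype as a second term, against 45.0% of the 16873 genes tested. Notch4, Dll1 and Hey1 were higher in kidney, where 23.7% of all genes passed in that direction. Notch1, Notch3, Jag2 and Hes1 were higher in ureter, where 21.4% of all genes passed. Of these, 4 (Jag2, Dll1, Hes1 and Hey1) were also past 2-fold, against 24.7% of all genes. The CPM of the tissues did not overlap for 8 of the 10 members, against 61.0% of all genes. The median log2 difference (kidney minus ureter) was -0.21 over the members and 0.076 over all genes tested. Scaling by library size alone moved the all-gene median to 0.365 and the calls from 3992 higher in kidney and 3603 higher in ureter to 6108 and 2371, so that differences are best read relative to that median. The members called between the tissues kept their sign under every scaling tried, while Notch2 did not. In whole tissue, fewer cells of a type and less RNA per cell cannot be told apart.

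**Figure D1:**
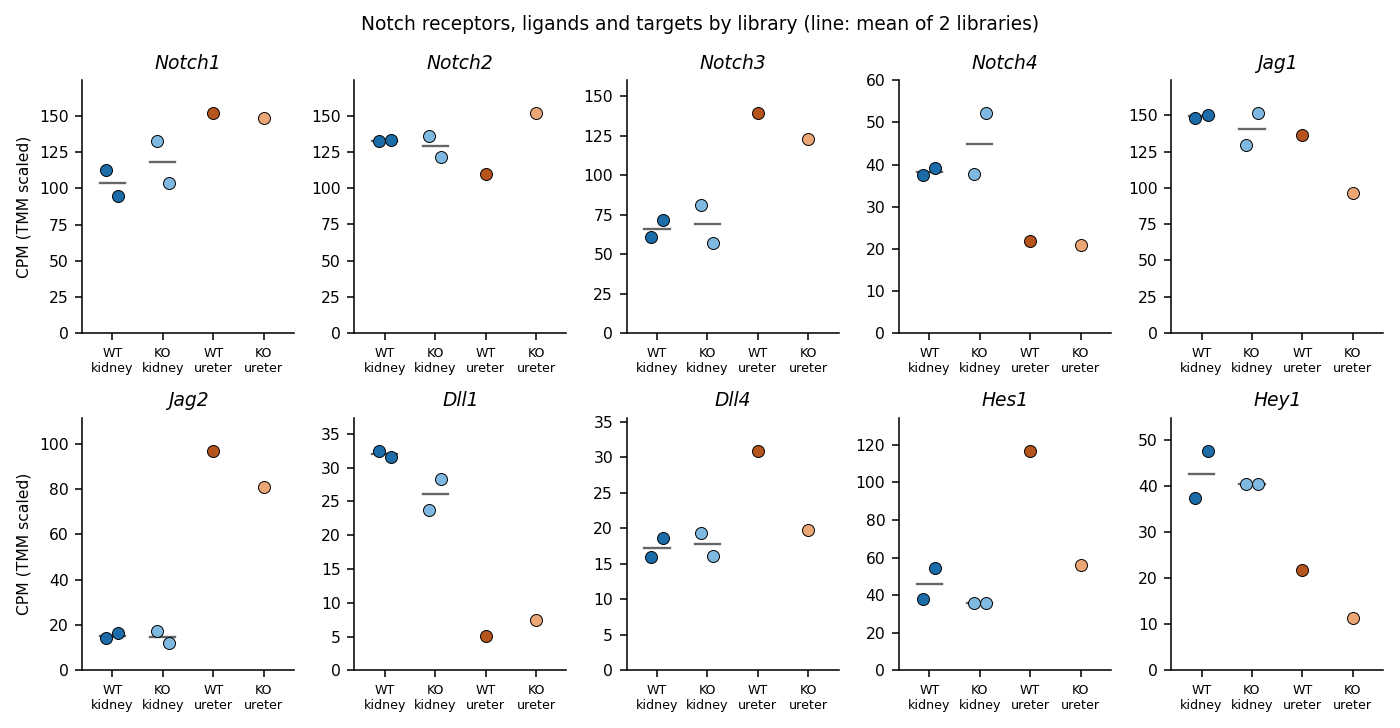
Each panel plots 1 gene, with TMM-scaled CPM on a linear axis from 0 and 1 point per library; grey lines are means of 2 kidney libraries. Jag2 sits at 11.9 to 17.3 CPM in kidney against 80.7 and 96.9 in ureter, and Dll1 at 23.8 to 32.5 against 7.465 and 5.09.

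Among the receptors, Notch1, which acts in many tissues including endothelium, lies on chromosome 2 (26457903 to 26516663, minus strand, GRCm38). Its TMM-scaled CPM was 133 and 104 in the Ahnak KO kidneys, 113 and 94.9 in the WT kidneys, 148 in KO ureter and 152 in WT ureter. Both ureter libraries were above every kidney library in CPM, but not in TPM, where kidney (21.5 to 30.1) spanned both ureter values (23.9 and 27.9). The log2 difference was -0.44 (SE 0.14, adjusted p = 0.0407 in edgeR's test), and it passed in 7 of 16 alternatives. With library size alone it was -0.15 (adjusted p = 0.443), and it was lost on leaving out either WT kidney, either ureter or Ahnak KO kidney replicate 2, where the adjusted p lay between 0.0626 and 0.232. It was also lost within the Ahnak KO libraries (-0.32, adjusted p = 0.238) and with limma on log2(TPM + 1) (-0.058, adjusted p = 0.786).

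Notch3, the receptor of pericytes and vascular smooth muscle, lies on chromosome 17 (32120820 to 32166852, minus strand). It stood at 81.2 and 57.25 CPM in the Ahnak KO kidneys, 60.6 and 71.5 in the WT kidneys, 123 in KO ureter and 139 in WT ureter. Both ureter libraries exceeded all kidney libraries. The log2 difference was -0.96 (SE 0.16, 1.94-fold higher in ureter, adjusted p = 0.00423), and within the Ahnak KO libraries alone it was -0.83 with an adjusted p of 0.0512.

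Notch4, a receptor known mainly from endothelium, lies on the same chromosome (34564268 to 34588503, plus strand) and went the other way. Its values were 37.8 and 52.2 CPM in the Ahnak KO kidneys, 37.4 and 39.1 in the WT kidneys, 21.0 in KO ureter and 21.9 in WT ureter. Every kidney library was above both ureter libraries, which were nearly equal. Notch4 was 1.93-fold higher in kidney (log2 0.95, SE 0.17, adjusted p = 0.00590) and passed in 16 of 16 alternatives.

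Notch2, the receptor known for its part in proximal nephron formation, lies on chromosome 3 (98013527 to 98150361, plus strand). It was at 136 and 121 CPM in the Ahnak KO kidneys, 132 and 133 in the WT kidneys, 152 in KO ureter and 109.9 in WT ureter. The kidney values lay between those of the ureter libraries. Its tissue difference was 0.01 (SE 0.14, adjusted p = 0.955), with a sign that turned under DESeq2's scaling (-0.001) and within the Ahnak KO libraries (-0.235). It passed in 1 alternative, limma on log2(TPM + 0.1) (0.40, adjusted p = 0.0482).

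The receptors' summed TPM spanned 77.9 to 92.4 in kidney and was 74.5 and 82.6 in ureter, while their shares of it moved. Notch4 made up 13.3 to 21.0% of the receptor TPM in kidney and 6.51 and 7.0% in Ahnak KO and WT ureter. Notch3 made up 19.2 to 23.9% in kidney and 31.8 and 37.1% in ureter. The share of Notch1 overlapped in part, at 26.6 to 32.6% in kidney and 32.1 and 33.8% in ureter.

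The Jagged ligands went different ways. Jag2, a ligand known from epithelia, lies on chromosome 12 (112907819 to 112929776, minus strand). It was at 17.3 and 11.9 CPM in the Ahnak KO kidneys, 14.1 and 16.5 in the WT kidneys, 80.7 in KO ureter and 96.9 in WT ureter. The ureter values exceeded the highest kidney value in both genotypes. Jag2 was 5.92-fold higher in ureter (log2 -2.565, SE 0.17, adjusted p = 9.28e-05) and passed in 16 of 16 alternatives.

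Jag1, the ligand whose loss is known to disturb bile ducts, heart and kidney, lies on chromosome 2 (137081456 to 137116644, minus strand). It was at 129.5 and 151 CPM in the Ahnak KO kidneys, 148 and 150 in the WT kidneys, 96.2 in KO ureter and 136 in WT ureter. WT ureter lay within the kidney range and KO ureter lay below it. The log2 difference was 0.33 (SE 0.13, adjusted p = 0.0784), which passed in 5 of 16 alternatives, among them DESeq2's test, library size alone, limma on log2 TPM and leaving out WT ureter (0.55, adjusted p = 0.0329). The TPM ratio of Jag1 to Jag2 was 5.54 to 9.40 in kidney, 0.88 in Ahnak KO ureter and 1.04 in WT ureter. Jag1 therefore made up 58.4 to 63.5% of the summed TPM of the 4 ligands in kidney and 38.7 and 42.0% in KO and WT ureter, and Jag2 6.75 to 10.5% in kidney and 43.9 and 40.4% in ureter.

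Dll1, the Delta-like ligand of early nephrons, lies on chromosome 17 (15367354 to 15376872, minus strand). It had 23.8 and 28.3 CPM in the Ahnak KO kidneys, 32.5 and 31.6 in the WT kidneys, 7.465 in KO ureter and 5.09 in WT ureter. All 4 kidney libraries were far above both ureter libraries. Dll1 was 4.63-fold higher in kidney (log2 2.21, SE 0.25, adjusted p = 7.74e-04) and passed in 16 of 16 alternatives. Its share of the ligand TPM was 17.2 to 21.3% in kidney and 4.81 and 2.51% in Ahnak KO and WT ureter.

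Dll4, the Delta-like ligand of arterial and sprouting endothelium, lies on chromosome 2 (119325784 to 119335962, plus strand). Its CPM was 19.3 and 16.1 in the Ahnak KO kidneys, 15.9 and 18.6 in the WT kidneys, 19.7 in KO ureter and 30.9 in WT ureter. The KO ureter value was next to the highest kidney value and the WT ureter value was above all others. The log2 difference was -0.51 (SE 0.20, adjusted p = 0.0829), and it passed within the WT libraries (-0.84, adjusted p = 0.0191) and without the Ahnak KO ureter library (-0.84, adjusted p = 0.0278). Dll4 shares 214 exon bases with Gm14207 on the other strand, which had 18 to 112 counts, and whether strand was used in counting was not stated.

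The sequences before Dll1 and Dll4 are shown because, among the members, only these lay outside the gene in both GENCODE and RefSeq. Each holds the 250 bases before a start listed by RefSeq (GRCm38.p6), 5′ to 3′ on the gene's own strand, at chr17:15376933-15377182 (minus) for Dll1 and chr2:119325534-119325783 (plus) for Dll4. Capitals mark the GC box GGGCGG or its reverse complement.
Dll1: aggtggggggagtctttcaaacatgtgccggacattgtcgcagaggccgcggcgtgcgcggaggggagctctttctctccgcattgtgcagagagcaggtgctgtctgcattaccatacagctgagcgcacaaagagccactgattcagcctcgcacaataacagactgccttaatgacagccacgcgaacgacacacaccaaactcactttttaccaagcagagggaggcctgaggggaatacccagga
Dll4: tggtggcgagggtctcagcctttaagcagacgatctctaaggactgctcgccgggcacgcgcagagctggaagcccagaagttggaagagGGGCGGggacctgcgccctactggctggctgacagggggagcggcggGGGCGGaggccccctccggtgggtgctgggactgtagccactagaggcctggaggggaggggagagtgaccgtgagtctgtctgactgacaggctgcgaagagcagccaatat
The Dll4 window held 2 matches and 65.6% G and C, and the Dll1 window shown held 0 matches and 56% G and C. The median was 52.4% over 32851 windows of the same length. Another Dll1 window, inside the gene in RefSeq and not shown, held 0 matches and 64% G and C. RefSeq gave 9 such windows for 8 of the members, of which 7 overlapped the gene in GENCODE or RefSeq, some by a few bases and others, such as that of Jag2, over their whole length. The GC box occurred in 32.7% of all windows and in 5 of the 9 (those of Notch1, Notch2, Notch3, Jag2 and Dll4). The letters TGGGAA, the core bound by Rbpj, occurred on either strand in 21.6% of all windows and in 0 of the 9. The E box CACGTG, bound by Hes and Hey proteins, occurred in 6.02% of all windows and in 0 of the 9. Hes1 and Hey1 had no entry.

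**Figure D2:**
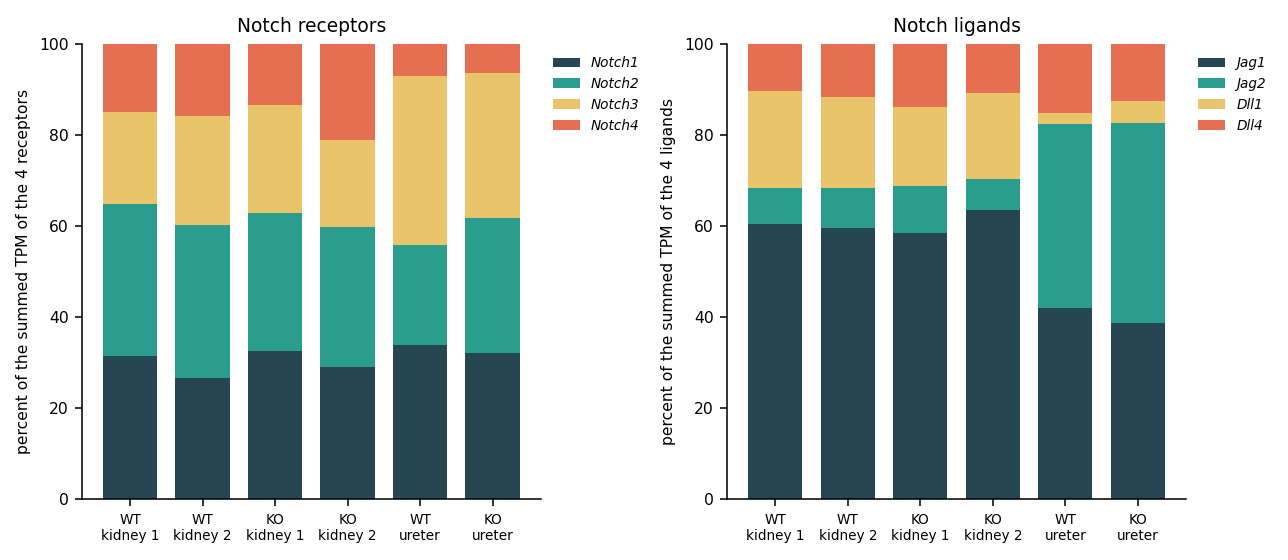
Stacked bars give the percent of the summed TPM of the 4 receptors (left) and of the 4 ligands (right) in each library. Jag1 holds 58.4 to 63.5% of the ligand bar in kidney, while Jag1 and Jag2 hold about equal parts in ureter.

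Of the targets, Hes1, a repressor of differentiation genes, lies on chromosome 16 (30064384 to 30067796, plus strand). It was at 35.75 and 36 CPM in the Ahnak KO kidneys, 37.9 and 54.4 in the WT kidneys, 56.3 in KO ureter and 117 in WT ureter. The KO ureter value was just above the highest WT kidney value, and WT ureter stood far above the other libraries. In TPM the KO ureter value (59.3) lay inside the kidney range (51.4 to 80.8). Hes1 was 2.01-fold higher in ureter (log2 -1.01, SE 0.20, adjusted p = 0.00831). Without the WT ureter library the difference was -0.65 (adjusted p = 0.0727), and limma on log2(TPM + 1) gave -0.61 (adjusted p = 0.0547).

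Hey1, a repressor known from arterial endothelium, lies on chromosome 3 (8663359 to 8667256, minus strand). Its values were 40.4 and 40.5 CPM in the Ahnak KO kidneys, 37.5 and 47.7 in the WT kidneys, 11.4 in KO ureter and 21.8 in WT ureter. Every kidney library was above both ureter libraries. Hey1 was 2.59-fold higher in kidney (log2 1.37, SE 0.23, adjusted p = 0.00451) and passed in 16 of 16 alternatives. The targets thus went opposite ways, and the TPM ratio of Hes1 to Hey1 was 1.34 to 1.74 in kidney, 7.52 in Ahnak KO ureter and 8.15 in WT ureter.

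**Figure D3:**
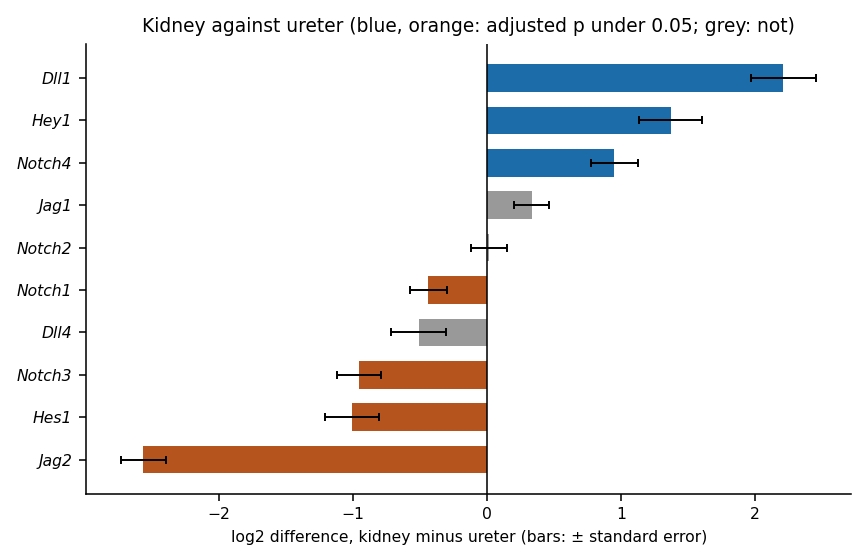
Bars give the log2 difference in expression (kidney minus ureter) of each member with its standard error as a black line; blue and orange bars passed an adjusted p of 0.05 and grey bars did not. The range is from -2.565 for Jag2 to 2.21 for Dll1.

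The tissues also differed in markers of several cell types, whose part in the results was not tested. The summed CPM of 14 endothelium markers was 989 to 1165 in kidney and 974 and 1010 in Ahnak KO and WT ureter, with 5 of the 14 called higher in kidney and 1 higher in ureter. Shares of such a sum are in CPM and compare libraries, not genes. Set against the endothelium sum, Notch4 amounted to 3.29 to 4.48% in kidney and 2.15 and 2.17% in ureter. Hey1 amounted to 3.32 to 4.82% of the same sum in kidney and 1.17 and 2.16% in ureter. Notch1 and Dll4 went the other way, Notch1 with 8.91 to 11.6% in kidney and 15.2 and 15% in ureter. Dll4 amounted to 1.38 to 1.88% in kidney and 2.02 and 3.06% in ureter. The 7 mural cell markers summed to 734 to 812 CPM in kidney and to 947 and 939 in KO and WT ureter. Of these 7, 2 were called higher in kidney and 2 higher in ureter. Notch3 amounted to 7.05 to 10.1% of the mural cell sum in kidney and 13.0 and 14.8% in ureter. All 9 smooth muscle markers (589 to 694 CPM in kidney, 7079 and 7822 in ureter) and all 9 urothelium markers were called higher in ureter. Jag2 was 16.4 to 24.6% of the urothelium sum in kidney and 0.912 and 1.28% in ureter, so it differed far less between tissues than those markers did. The 5 developing nephron markers summed to 285 to 316 CPM in kidney and 113 and 80.0 in ureter, with Lhx1 and Fgf8 at 0 in both ureter libraries, and Dll1 amounted to 8.20 to 11.1% of the sum in kidney and 6.58 and 6.36% in ureter.

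The second question was whether Ahnak KO changed the members in kidney. None of the 10 passed an adjusted p of 0.05 in edgeR's test, against 0.0121% of the 16481 genes tested, and 0 passed an unadjusted p of 0.05, against 1.38% of genes. All 10 adjusted p were 1.0, and DESeq2 and the other alternatives also called 0 members. Ahnak did not pass the adjusted threshold in edgeR's test either. With 2 libraries per genotype, not passing does not show that a member was unchanged. The median log2 difference (KO minus WT) was -0.056 over the members and -0.0041 over all genes tested. The genotypes did not overlap in CPM for 2 of the 10 members, against 26.3% of all genes. These were Hes1, with 35.75 and 36 CPM in KO and 37.9 and 54.4 in WT, and Dll1, with 23.8 and 28.3 in KO and 32.5 and 31.6 in WT.

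The kidney difference was -0.36 for Hes1 (SE 0.19, unadjusted p = 0.109) and -0.30 for Dll1 (SE 0.15, unadjusted p = 0.0866), the lowest of the members in the edgeR fit. Hes1 rested on WT replicate 2, without which its difference was -0.08. The log2 differences of the receptors were 0.19 for Notch1 (SE 0.15), -0.04 for Notch2 (SE 0.10), 0.07 for Notch3 (SE 0.19) and 0.24 for Notch4 (SE 0.18). Notch1 and Notch3 were each highest in Ahnak KO kidney replicate 1 and Notch4 in replicate 2, and for all 3 the KO libraries differed more from each other than the group means did. Replicate 1 was also the library with high Xist, and the part of this in the kidney differences was not tested. The other ligands were at -0.085 for Jag1 (SE 0.11), -0.07 for Jag2 (SE 0.23) and 0.04 for Dll4 (SE 0.18), and Hey1 at -0.07 (SE 0.16).

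The third question was the same contrast in ureter, where 1 library per genotype allowed no test and no replicate check. Hes1 was the only member past a 2-fold ratio, against 10.2% of the 16117 genes compared and 5.75% lower in KO. It had 1673 counts in Ahnak KO ureter and 6012 in WT ureter, which gave a log2 ratio of -1.045 (95% counting interval -1.13 to -0.97, exact binomial, covering counting error only). Hey1 had 338 and 1121 counts and a log2 ratio of -0.90 (-1.12 to -0.76). Both targets were lower in the KO ureter library, and with library size alone their ratios were -1.24 and -1.09, both past 2-fold.

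The ligands were not of 1 sign. Dll4 had 586 counts in KO ureter and 1591 in WT ureter (log2 ratio -0.63, interval -0.79 to -0.51), Jag1 had 2860 and 7017 (-0.50, interval -0.565 to -0.44), and Jag2 had 2400 and 4986 (-0.26, interval -0.33 to -0.19). Dll1 was higher in the KO library, with 222 and 262 counts (0.51, interval 0.29 to 0.82). The 5 developing nephron markers summed to 113 CPM in KO ureter and 80.0 in WT ureter, with Lhx1 and Fgf8 at 0 in both. The receptors lay nearer to 0, at -0.03 for Notch1, -0.175 for Notch3 and -0.06 for Notch4, except Notch2 at 0.46 (interval 0.41 to 0.52). In all, 8 of the 10 members were below 0, with a median of -0.22, against 51.3% of all genes and a median of -0.016. Scaling by library size moved the medians to -0.415 and -0.20 and the share of all genes below 0 to 67.7%. Beside these ratios, the summed CPM of the 7 striated muscle markers was 159 in KO ureter and 387 in WT ureter, that of the 9 smooth muscle markers 7079 and 7822, and that of the 9 urothelium markers 8847 and 7589. The part of these markers, of the developing nephron markers and of the Rn45s share of the KO library in the ratios was not tested.

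**Figure D4:**
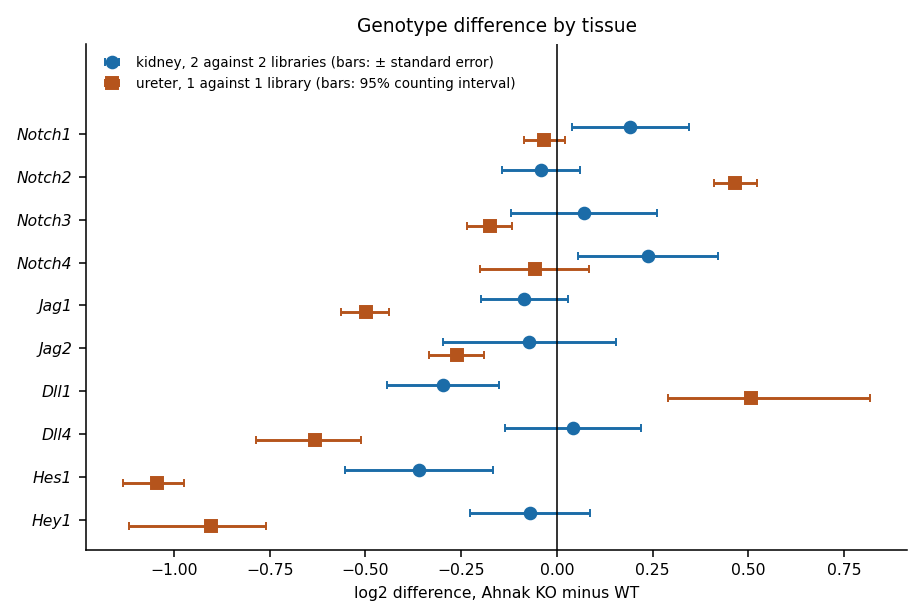
The axis gives the log2 difference (Ahnak KO minus WT) of each member in kidney (blue circles, 2 against 2 libraries, lines of 1 standard error) and ureter (orange squares, 1 against 1 library, lines of the 95% counting interval). In kidney all members lie between -0.36 and 0.24, and in ureter between -1.045 for Hes1 and 0.51 for Dll1.

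Whether the genotype difference was itself different between the tissues was tested in all 6 libraries, with the spread taken from the kidney libraries. None of the 10 members passed an adjusted p of 0.05, against 0.113% of genes, and 3 passed an unadjusted p of 0.05, against 12.8% of genes. The difference (kidney minus ureter) was -0.85 for Dll1 (SE 0.28, adjusted p = 0.308), 0.865 for Hey1 (SE 0.28, adjusted p = 0.300) and -0.51 for Notch2 (SE 0.19, adjusted p = 0.346). For Hes1 it was 0.69 (SE 0.33, adjusted p = 0.455).

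Other genes of the pathway were taken from a list of 60, of which 57 were tested. Between the tissues 9 were higher in kidney and 14 higher in ureter, against 45.0% of all genes in either direction, with a median log2 difference of -0.035 against 0.076 over all genes. Of those that passed, the largest were the non-canonical ligands Dlk1 (8.65 to 15.1 CPM in kidney, 323 and 336 in KO and WT ureter, log2 -4.86, adjusted p = 2.82e-05) and Dlk2 (0.215 to 0.455 CPM in kidney, 3.43 and 7.54 in ureter, log2 -4.06, adjusted p = 0.00124). Nrarp, a Notch target that limits the pathway, was at 26.5 to 36.6 CPM in kidney and 127 and 107 in KO and WT ureter (log2 -1.99, adjusted p = 2.13e-04), the same direction as Hes1. Heyl, a relative of Hey1, was at 62.1 to 74.8 CPM in kidney and 13.9 and 29.9 in KO and WT ureter (log2 1.71, adjusted p = 0.00211), the same direction as Hey1.

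The step of receptor cleavage had 3 genes higher in ureter and 1 higher in kidney of 10, against 21.4 and 23.7% of all genes. Adam10, one of the ADAM proteases, differed by -0.81 (adjusted p = 0.00116), and Aph1c, a gamma-secretase subunit, by 1.55 in the other direction (adjusted p = 0.00193). Of the nuclear complex, 3 of 7 were higher in ureter and 0 higher in kidney, against the same shares, including Rbpj (81.9 to 92.2 CPM in kidney, 126 and 168 in KO and WT ureter, log2 -0.73, adjusted p = 0.00330). Of the genes for inhibition and turnover, the Deltex ligases Dtx4 (log2 -1.77) and Dtx3l (-1.03) were higher in ureter, and Dtx3 (1.09) and the kinase Aak1 (1.55) higher in kidney. Their adjusted p were 9.28e-05 for Dtx4, 0.00388 for Dtx3l, 0.00786 for Dtx3 and 1.27e-04 for Aak1.

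**Figure D5:**
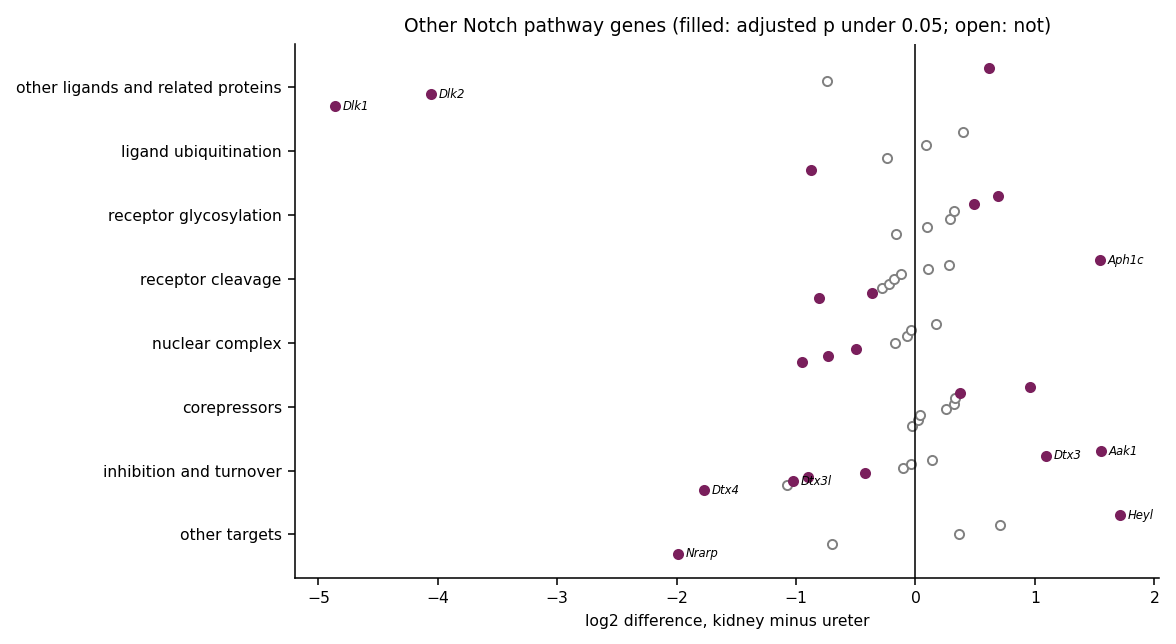
Each point is 1 of 53 genes, out of the 55 other pathway genes listed above 0 in all 6 libraries, placed by its log2 difference (kidney minus ureter) and grouped by its step in the pathway; filled points passed an adjusted p of 0.05, and those beyond 1 on the log2 scale are named. Dlk1 at -4.86 and Dlk2 at -4.06 lie farthest toward ureter.

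By genotype in kidney 0 of the 57 pathway genes passed, and 1 passed an unadjusted p of 0.05, against 1.38% of all genes. In ureter 5 of 57 were past 2-fold lower in KO, against 5.75% of all genes, and 0 past 2-fold higher, with a median log2 ratio of -0.097 against -0.016 over all genes. These were Dtx1 (242 and 1132 counts in KO and WT, log2 ratio -1.37), Dner (40 and 209, -1.27), Tle2 (573 and 2373, -1.23), Heyl (413 and 1537, -1.07) and Dlk2 (102 and 388, -1.02). Heyl thus lay near Hes1 and Hey1 in that comparison, while the targets Nrarp (0.25) and Hes6 (0.405) lay above 0 and Hey2 was at -0.58.

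Among 11141 genes with a mean of at least 10 CPM, those with profiles over the 6 libraries nearest to 5 of the members were listed by the root mean square distance of centered log2 CPM. For Jag1 they were 4933439C10Rik, Zfp346 and Ppm1f (distance 0.0395 to 0.0402), and for Notch1 Sort1, Itga5 and Pdzrn3 (0.053 to 0.064). Those of Notch3 were Tstd3, Elmsan1 and Ehbp1 (0.064 to 0.068), and those of Notch4 Ppp2r3d, Gnai1 and Fibin (0.092 to 0.106). Hes1 had the most distant neighbors of the 5, Aacs, Pid1 and Ndufa4l2 (0.166 to 0.192), all of which were also highest in WT ureter.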

How the data were processed

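Bulk RNA-seq of PN1 mouse kidney and ureter was used. RNA was extracted with TRIzol, libraries were made with the TruSeq Stranded mRNA kit and sequenced on an Illumina HiSeq2500. The authors deposited 1 table with, for each gene and library, FPKM, TPM and an estimated count that is a whole number. The submitters' processing notes name FastQC 0.11.7, Trimmomatic 0.38, HISAT2 2.1.0, StringTie 1.3.4b and mm10, while the methods of the study name Cutadapt, STAR, Cufflinks and GRCm39, and which of them made the table could not be settled. A count of 0 is therefore the table's entry for an estimate. The FPKM values that the authors deposited were not used, and deposited TPM values were used for levels between genes.

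Groups came from the tissue and genotype labels. Counts were tested with edgeR 4.0.16 in R 4.3.3 (TMM, filterByExpr, quasi-likelihood test, Benjamini-Hochberg adjustment over all genes tested). The plan assumed read counts, and the fits were run on estimated counts. Kidney genotypes were compared in 4 libraries, and tissues in 6 with genotype as a term. The deposited column names give the same numbers to Ahnak KO kidney replicate 2 and Ahnak KO ureter. They also give the same numbers to WT kidney replicate 2 and WT ureter. Whether such libraries share animals was not stated. The tissue fit took all libraries as independent, and no block paired kidney with ureter. Standard errors are the absolute log2 difference divided by the square root of F. Since nothing says that libraries came from separate litters, p-values measure the spread between these libraries. CPM are scaled by TMM factors of all 6 libraries, apart from the count floor and Ahnak in ureter. Ureter ratios are log2 of CPM + 0.5 with TMM factors of both ureter libraries, over genes for which one library or both had 10 counts or more, with exact 95% binomial intervals. Alternatives used DESeq2 1.42.0, limma 3.58.1 on log2(TPM + 1) and log2(TPM + 0.1), other filters and scalings, blocks, and leaving out each library. Scripts were tested on simulated data. Python 3.11.15 and pandas 2.3.3 were used for the rest.

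The members, the pathway list, the marker lists and the naming rule were chosen with earlier results of these data known. The rule named all members, pathway genes past 2-fold between tissues or in ureter, or called by genotype, and the 3 genes nearest in profile to 5 members. Adam10, Rbpj, Hes6, Hey2 and Nrarp in ureter were named after their values were seen. Some genes of the pathway list are counted but not reported here by name. Gene positions are from GENCODE (GRCm38) and sequence windows from RefSeq (GRCm38.p6), each before a start it lists, for 8 of the 10 members. Only windows outside the gene in both annotations are printed. Of the table's genes 24462 matched RefSeq by gene number, and 27 symbols that read as calendar dates were put back. Notch1, Notch3, Dll1 and Dll4 share exon bases with genes on the opposite strand and Notch2 with one on its own, so their counts are less certain.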

Additional observations from a re-analysis of the deposited data

Results flagged for a closer look

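The genotype difference of Dll1 had opposite signs in kidney and ureter. The same held for Notch1, Notch2, Notch3, Notch4 and Dll4, while Jag1, Jag2, Hes1 and Hey1 were below 0 in both. Both Ahnak KO kidney libraries (23.8 and 28.3 CPM) were below both WT kidney libraries (32.5 and 31.6), while the KO ureter library (7.465) was above the WT ureter library (5.09). Kidney genotypes did not overlap for 26.3% of all genes, and the kidney difference of Dll1 had an unadjusted p of 0.0866 in edgeR's test. The genotype difference in kidney minus that in ureter was -0.85 on the log2 scale (SE 0.28, adjusted p = 0.308, edgeR's quasi-likelihood test). It did not pass, so a difference in direction was not established. The test had 1 ureter library per genotype and took its spread from kidney. An unadjusted p of 0.05 was passed by Dll1 and by 12.8% of all genes. The 5 developing nephron markers summed to 113 CPM in KO ureter and 80.0 in WT ureter, and Dll1 was 6.58 and 6.36% of those sums. Lhx1 and Fgf8 were at 0 in both ureter libraries, so the sums came from Wnt4, Pax8 and Sox9.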

How the results depend on the processing

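No alternative called a member by genotype in kidney or in the genotype by tissue test. For all genes, kidney calls went from 2 to 44 with DESeq2, 1 with at least 10 counts in every library, 0 with limma on either TPM scale, 0 in the fit of all 6 libraries and 3 to 87 on leaving out 1 library. The replicate block gave 0 genes and 0 members, as did the block on title numbers in all 6 libraries; same-numbered kidney libraries had a correlation of deviations of -0.157, and the crossed pairing, chosen after seeing the data, called 1 gene. The genotype by tissue test called 19 genes, 484 with DESeq2 and 4 to 258 on leaving out 1 library. In ureter 2 members rather than 1 were past 2-fold with library size alone and with TPM + 0.1, and all genes past it went from 1651 to 2771 with a pseudocount of 0.1 and 2936 with TPM + 0.1.

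The fit of all 6 libraries has 1 genotype term for both tissues, so its value is not a kidney difference. Its sign opposed the kidney fit for Notch2 (0.125, and 0.123 with the block), Notch3 (-0.014 and -0.026) and Dll4 (-0.188 and -0.190). In ureter alone the log2 ratios of these genes were 0.46, -0.175 and -0.63. On leaving out 1 library the kidney genotype difference ranged from -0.200 to 0.294 for Notch3, -0.210 to 0.026 for Jag1, -0.092 to 0.161 for Dll4, -0.125 to 0.032 for Notch2, -0.023 to 0.453 for Notch4, -0.362 to 0.166 for Jag2 and -0.235 to 0.111 for Hey1. The tissue difference of Notch2 was -0.001 with DESeq2 and with its size factors, -0.235 within the Ahnak KO libraries, -0.024 to 0.087 on leaving out 1 kidney library, -0.233 without WT ureter and 0.271 without Ahnak KO ureter. The difference of genotype effects between tissues ranged from -0.028 to 0.476 for Notch3 and -0.103 to 0.435 for Jag2. The cause was not tested. A fit that leaves 1 library in a group assumes that it varies like the others. The tissue calls of Notch4, Jag2, Dll1 and Hey1 passed in all 16 alternatives, Notch3 in 15, Hes1 in 13 and Notch1 in 7. Ureter has 1 library per genotype, and its ratios have no replicate check.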
